A study of Mus musculus with 6 samples.

Results

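The uncoupling proteins UCP1, UCP2 and UCP3 are encoded by Ucp1, Ucp2 and Ucp3, which were taken from the count tables by gene symbol. They were 3 of 23282 rows, and all 3 passed the filter on low counts. Counts came from RNA of the brown adipose tissue (BAT) of 5-week-old male C57BL/6N mice, 3 wild-type (WT) and 3 Letmd1 knockout (KO). Each library was made from 500 ng of total RNA with QuantSeq, which primes at the poly(A) tail and reads near the 3′ end, so that counts need no correction for transcript length and the paralogs can be set side by side. The KO mice were homozygous for a knockout-first allele of Letmd1, which encodes a mitochondrial protein. A lacZ and neomycin resistance cassette in the intron between exons 2 and 3 disrupts the gene in all tissues, not in BAT alone, and the line comes from a single embryonic stem cell clone. The study's general statement on housing puts its mice near room temperature.

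UCP1 is the defining protein of thermogenic brown and beige adipocytes. It sits in the inner mitochondrial membrane and lets protons return to the matrix without ATP synthesis, so that the energy of respiration is released as heat. It is activated by fatty acids, and its gene is induced by noradrenaline through beta-adrenergic receptors, cyclic AMP and nuclear receptors. UCP2 and UCP3 are its closest relatives among the mitochondrial carriers. UCP2 is found widely, with high expression in immune cells such as macrophages, and UCP3 is found mainly in skeletal muscle and brown fat. Neither is held to carry the heat production of BAT.

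Library totals were between 6669577 and 14574273 counts. Levels are given as CPM, which are counts relative to a library size scaled by TMM, and the floor of 3 counts (the upper limit where 0 were found) was 0.176 to 0.397 CPM. TMM factors were between 0.852 and 0.886 for the WT mice and between 1.13 and 1.17 for the KO mice. Letmd1 had 5658, 6490 and 5266 counts in the WT mice and 0, 0 and 1 in the KO mice, as the genotype labels say. BAT is a mixed tissue, and in these bulk samples fewer cells of a type and less RNA per cell cannot be told apart.

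In the GENCODE annotation of GRCm38, the build that the labels call mm10, the 3 genes lie on the plus strand at 2 places. Ucp1 (ENSMUSG00000031710.4) has 6 exons at chr8:83290352-83298452. Ucp3 (ENSMUSG00000032942.14) has 7 exons at chr7:100472990-100486432, and Ucp2 (ENSMUSG00000033685.13) has 8 exons at chr7:100493337-100502020. Only 6904 bases separate the end of Ucp3 from the start of Ucp2, so these 2 paralogs are neighbours read in the same direction. Reads with several alignments were counted by the authors, but none of the 1587, 3939 and 2399 stretches of 50 bases in the main transcripts of Ucp1, Ucp2 and Ucp3 occurred in a transcript of another gene. On the opposite strand, Dnajb13 overlaps the 3′ end of Ucp2 by 305 bases and had 28 counts over the 6 mice, and the antisense gene Gm10603 overlaps the start of Ucp3 by 1857 bases. Whether counting used strand was not given in the sources used here.

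The sequences just before the start of each gene are shown because the 3 members moved in different directions. They are from RefSeq on GRCm38.p6, plus strand, 5′ to 3′, at chr8:83290098-83290347 for Ucp1, chr7:100493108-100493336 for Ucp2 and chr7:100472741-100472989 for Ucp3. Capitals mark every match of AGGTCA, the core that nuclear receptors such as PPAR and thyroid hormone receptors bind, and of TATANA, the core of a TATA box.
Ucp1: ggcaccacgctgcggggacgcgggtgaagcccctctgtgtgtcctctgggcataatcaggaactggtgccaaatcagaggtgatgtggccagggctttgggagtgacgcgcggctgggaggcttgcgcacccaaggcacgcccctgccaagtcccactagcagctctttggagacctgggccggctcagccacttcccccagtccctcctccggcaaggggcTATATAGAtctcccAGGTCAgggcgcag
Ucp2: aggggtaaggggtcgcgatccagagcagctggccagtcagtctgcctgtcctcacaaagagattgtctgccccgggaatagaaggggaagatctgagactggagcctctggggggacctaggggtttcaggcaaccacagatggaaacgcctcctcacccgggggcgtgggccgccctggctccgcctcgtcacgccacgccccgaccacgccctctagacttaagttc
Ucp3: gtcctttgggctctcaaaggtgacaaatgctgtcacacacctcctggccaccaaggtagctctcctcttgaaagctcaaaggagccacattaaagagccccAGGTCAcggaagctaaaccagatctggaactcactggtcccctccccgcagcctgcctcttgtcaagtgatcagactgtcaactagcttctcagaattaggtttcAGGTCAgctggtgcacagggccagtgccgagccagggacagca
Motifs, GC content and CpG were counted over the whole 250 bases before the RefSeq start, from which distances are given. For Ucp2 and Ucp3 the last bases of that window lie past the earliest annotated start and are not printed. The Ucp1 window held 1 AGGTCA match, beginning 14 bases before the start, and 2 overlapping TATANA matches, the nearest beginning 26 bases before it. Ucp2 held neither motif. Ucp3 held AGGTCA at 2 positions, beginning 44 and 149 bases before the start. Of 32851 RefSeq windows of 250 bases before a start, searched on both strands, 14.0% held AGGTCA, 1.4% held it at least 2 times and 22.6% held TATANA. The cyclic AMP response core TGACG had 1 match in Ucp1, 1 in Ucp2 and 0 in Ucp3, and 17.8% of windows held it. The Sp1 box GGGCGG had 1 match, in Ucp2 (32.7% of windows). CCAAT was in none of the 3 (33.8% of windows). The E-box CANNTG had 2 matches in Ucp2 and 3 in Ucp3 (66.2% of windows). GC content was 64.8%, 63.6% and 54.8% in the windows of Ucp1, Ucp2 and Ucp3, against a median of 52.4%, and they held 12, 16 and 3 CpG dinucleotides, against a median of 6. A match is no evidence of binding, and the well-known Ucp1 enhancer lies further upstream, outside this window.

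Ucp1 and Ucp3 fell in Letmd1 KO BAT and Ucp2 rose. All 3 members passed the test (the quasi-likelihood test of edgeR at a threshold of 0.05, adjusted by Benjamini-Hochberg over all genes tested), 2 lower and 1 higher, in a comparison in which 46.0% of the 12995 genes tested passed it, 22.3% lower and 23.7% higher. In all 3, no KO mouse overlapped a WT mouse, which was also so for 57.3% of genes tested. A passed test or groups that do not overlap therefore set no gene apart here, and the sizes of the changes carry more information. Beside a median of 0.03 over all genes tested, the log2 fold changes of Ucp1, Ucp2 and Ucp3 were -4.05, 1.52 and -1.95.

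**Figure D1:**
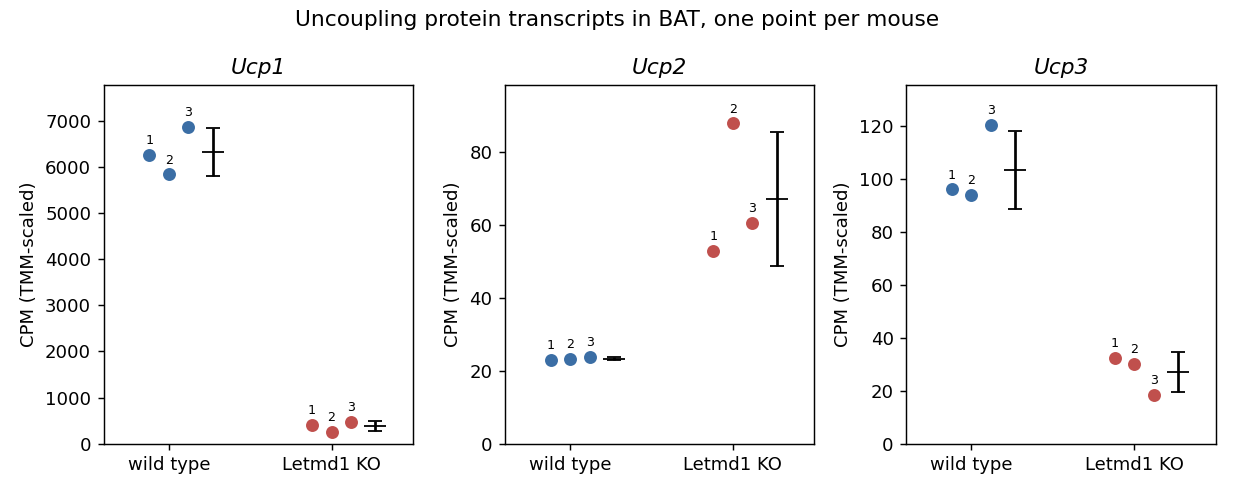
Level of Ucp1, Ucp2 and Ucp3 in CPM on TMM-scaled libraries, with 1 point per mouse numbered by replicate, on separate linear axes from 0. Black marks show the mean and SD (n = 3); the KO points lie below all WT points for Ucp1 and Ucp3 and above them for Ucp2.

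Ucp1 was among the most abundant transcripts of WT BAT. Its level was 6268, 5841 and 6874 CPM in the WT mice and 415, 255 and 476 CPM in the KO mice. The lowest WT mouse was thus far above the highest KO mouse. The mean was 6327.5 ± 519 CPM in WT BAT and 382 ± 114 CPM in KO BAT (SD, n = 3), which was 16.6-fold lower. The log2 fold change of -4.05 had a standard error of 0.25 and a 95% interval from -4.61 to -3.49 (adjusted p = 6.96e-06, edgeR). It was number 23 among all genes tested, counted from the most negative change. In raw counts Ucp1 went from 58144, 55093 and 52719 to 3775, 1926 and 8098. It held rank 13, 13 and 10 among all rows in the WT libraries and rank 293, 564 and 253 in the KO libraries. Its share of the library was 0.536%, 0.517% and 0.585% in the WT mice and 0.0484%, 0.0289% and 0.0556% in the KO mice. Ucp1 was still well above the floor in every KO mouse, so the transcript was reduced and not lost.

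Ucp2 was the least abundant member in WT BAT, with 23.0, 23.1 and 23.9 CPM. The KO mice had 52.7, 87.7 and 60.6 CPM, so that the lowest KO mouse was above every WT mouse and KO replicate 2 stood highest. The mean was 23.3 ± 0.48 CPM in WT BAT and 67.0 ± 18.4 CPM in KO BAT (SD, n = 3), which was 2.88-fold higher. Its log2 fold change was 1.52 with a standard error of 0.19 and a 95% interval from 1.10 to 1.94 (adjusted p = 0.000211, edgeR). Counted from the most positive change it was number 1355. In raw counts it had 213, 218 and 183 in the WT mice and 480, 663 and 1030 in the KO mice, and its rank in the library moved from 5860, 5889 and 5790 to 3221, 1972 and 2826.

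Ucp3 had 96.1, 93.8 and 120.35 CPM in the WT mice and 32.5, 30.04 and 18.3 CPM in the KO mice. The highest KO mouse was thus below the lowest WT mouse, and KO replicate 3 stood lowest. The mean was 103 ± 14.7 CPM in WT BAT and 27.0 ± 7.57 CPM in KO BAT (SD, n = 3), which was 3.83-fold lower. The log2 fold change was -1.95 with a standard error of 0.21 and a 95% interval from -2.43 to -1.47 (adjusted p = 9.61e-05, edgeR), number 256 from the most negative change. Counts were 891, 885 and 923 in the WT mice and 296, 227 and 312 in the KO mice. Its rank in the library was 2009, 2038 and 1580 in WT BAT and 4746, 5136 and 6846 in KO BAT.

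The levels spread more widely among the KO mice than among the WT mice for each member. The highest WT mouse exceeded the lowest by 1.18 times for Ucp1, 1.04 times for Ucp2 and 1.28 times for Ucp3. Among the KO mice the same ratios were 1.87, 1.66 and 1.77. The coefficient of variation was 8.203%, 2.07% and 14.2% in WT BAT and 29.9%, 27.4% and 28.1% in KO BAT for Ucp1, Ucp2 and Ucp3. With 3 mice a group this difference in spread was not tested.

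The order of the 3 paralogs differed between the genotypes. In each WT mouse it was Ucp1, then Ucp3, then Ucp2, and in each KO mouse it was Ucp1, then Ucp2, then Ucp3. In both genotypes the ranges of neighbours in this order did not overlap. Per Ucp2 count, the WT mice had 4.18, 4.06 and 5.04 Ucp3 counts and the KO mice had 0.617, 0.342 and 0.303, so the ratio passed from above 1 to below 1 in every mouse. The within-mouse log2 ratio of Ucp3 to Ucp2, which does not depend on library scaling, was 2.14 ± 0.17 in WT BAT and -1.32 ± 0.55 in KO BAT (SD, n = 3; difference -3.46, exact permutation p = 0.1, two-sided). With 3 mice against 3 the exact test cannot give a p below 0.1, and the 3 ratios between paralogs all reached it (0.1 after Benjamini-Hochberg adjustment over the 3).

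Ucp1 remained the leading transcript but by far less. The WT mice had 273, 253 and 288 Ucp1 counts per Ucp2 count, and the KO mice had 7.86, 2.91 and 7.86. The log2 ratio of Ucp2 to Ucp1 was -8.09, -7.98 and -8.17 in WT BAT and -2.98, -1.54 and -2.97 in KO BAT, a difference of 5.59. Per Ucp3 count there were 65.3, 62.3 and 57.1 Ucp1 counts in the WT mice and 12.8, 8.48 and 26.0 in the KO mice. The log2 ratio of Ucp3 to Ucp1 was accordingly higher by 2.12 in KO BAT, although Ucp3 itself fell.

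As a share of all UCP counts, Ucp1 made up 98.1%, 98.0% and 97.9% in the WT mice. In the KO mice it made up 82.9%, 68.4% and 85.8%. The 95% Wilson intervals ran from 81.8% to 84.0%, from 66.7% to 70.1% and from 85.1% to 86.5% in the KO mice. None of the 3 overlapped another. They cover counting error only and not the spread between separate mice, so they mark no single KO mouse out. The mean share was 98.0% ± 0.096 in WT BAT and 79.0% ± 9.33 in KO BAT (SD, n = 3; exact permutation p = 0.1). The difference of -19.0 percentage points became -13.7 without KO replicate 2. The share of Ucp2 was between 0.340% and 0.388% in the WT mice and was 10.5%, 23.5% and 10.9% in the KO mice. That of Ucp3 was between 1.504% and 1.715% in WT BAT and was 6.50%, 8.06% and 3.31% in KO BAT.

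**Figure D2:**
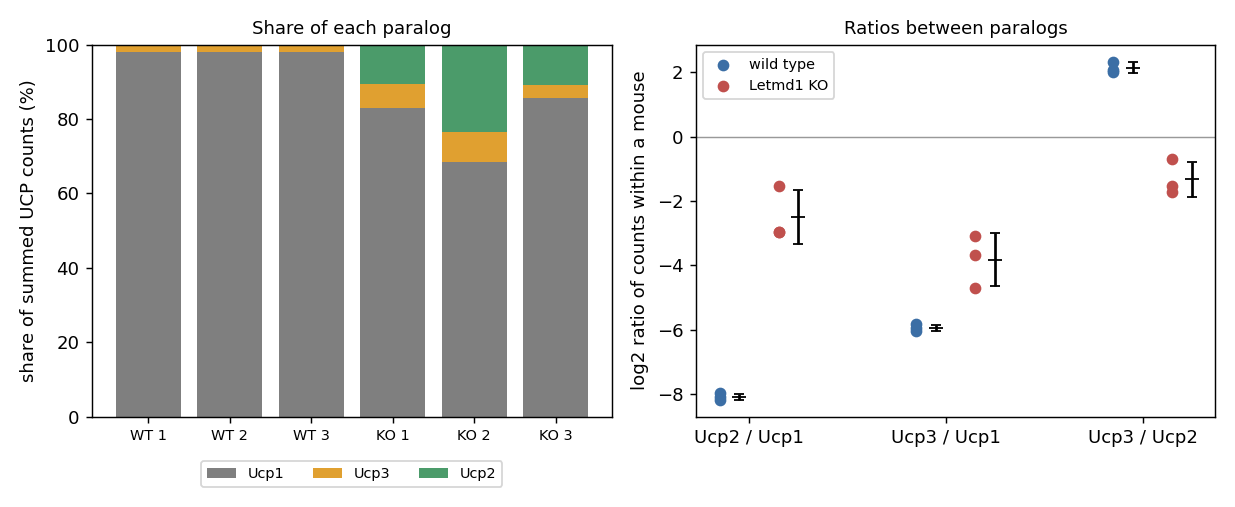
Left, share of the summed Ucp1, Ucp2 and Ucp3 counts in each mouse (stacked bars, percent). Right, within-mouse log2 ratios of counts with 1 point per mouse and the mean and SD (n = 3); the Ucp3 to Ucp2 ratio lies above 0 in the WT mice and below 0 in the KO mice.

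The gain of Ucp2 was small beside the loss of Ucp1. The mean of Ucp1 was lower by 5945.5 CPM in KO BAT, that of Ucp2 was higher by 43.7 CPM, which is 0.735% of the Ucp1 difference in size, and that of Ucp3 was lower by 76.4 CPM. The summed UCP transcripts were 6387, 5958 and 7018 CPM in the WT mice and 500.1, 372.7 and 555.2 CPM in the KO mice. No KO mouse came near a WT mouse, and the log2 difference was -3.78 (exact permutation p = 0.1). Ucp2 and Ucp3 together gave 119, 117 and 144 CPM in the WT mice and 85.3, 118 and 78.9 CPM in the KO mice. Here the groups overlapped (127 ± 15.2 and 94.0 ± 20.8 CPM, SD, n = 3; exact permutation p = 0.2), since the gain of Ucp2 and the loss of Ucp3 go against each other.

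Other brown adipocyte markers fell with Ucp1, most of them less. Of 16 markers, all tested and Ucp1 among them, 13 were lower and 1 was higher, with a median log2 fold change of -1.76. Slc27a2, a fatty acid transporter and acyl-CoA synthetase, fell most, from 74.5 ± 35.5 to 1.11 ± 0.37 CPM (SD, n = 3; log2 fold change -6.15, adjusted p = 1.54e-05, edgeR). Elovl3, which elongates very long fatty acids in stimulated brown fat, went from 30.8 ± 12.3 to 1.34 ± 1.37 CPM (log2 fold change -4.74, adjusted p = 0.000221). These 2 were the only markers with a more negative fold change than Ucp1. Cidea, a lipid droplet protein and an abundant marker of brown fat, had 4544, 4507 and 4763 CPM in the WT mice and 1384, 930.5 and 1658 CPM in the KO mice, a 3.48-fold lower mean (adjusted p = 0.000143). Fabp3, a fatty acid carrier of muscle and brown fat, was the marker that passed as higher, from 347 ± 47.6 to 956 ± 368 CPM (adjusted p = 0.00167). That call was lost with the muscle marker level as a covariate (log2 fold change 0.9998, adjusted p = 0.0809). Zic1, a transcription factor of brown fat precursors, and Ppargc1a did not pass the test. The summed brown markers were between 17585 and 19092 CPM in the WT mice and between 3555 and 5929 CPM in the KO mice.

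Of 12 general adipocyte markers, 7 were lower and 1 was higher (median log2 fold change -0.74), and their summed level was between 45402 and 51605 CPM in WT BAT and between 21553 and 31668 CPM in KO BAT. Without KO replicate 2, 8 were lower and 1 was higher, with a median of -1.34. Quantile normalization gave 5 lower and 3 higher, with the lipase gene Lipe turned from lower (-0.50) to higher (0.33). Cidec, a lipid droplet protein, fell most (1383 ± 228 to 366 ± 230 CPM, adjusted p = 0.00287). Adipoq, Plin1, Fabp4, Cidec, Lipe and Pnpla2, all lower in KO BAT with TMM scaling, served as a reference in which Fabp4 gave most of the counts. Relative to the summed counts of these 6 genes, Ucp1 differed by -2.70, Ucp3 by -0.58 and Ucp2 by 2.88 on the log2 scale. For each of the 3 the genotypes did not overlap, with an exact permutation p of 0.1. The markers left out of the reference had log2 fold changes of both signs. These were -1.43 (Cebpa), -0.50 (Cfd), -0.18 (Pparg), 0.26 (Lpl), 1.15 (Lep) and 1.79 (Retn). A reference of all 12 markers was not run, so the 3 differences hold for the 6 genes only.

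Genes of the adrenergic pathway to Ucp1 were mostly lower. Of 13 genes for receptors, the G protein, adenylate cyclases, protein kinase A and the factors it acts on, 10 were lower and 0 were higher (median log2 fold change -1.15), and the counts were the same at an unadjusted p under 0.05 and with DESeq2. Scaling by library size alone gave 7 lower and 1 higher (Creb1, log2 fold change 0.43, adjusted p = 0.00725). Quantile normalization with limma gave 8 lower and 0 higher, with a median of -0.58. The calls of Prkar2b and Mapk14 were lost there (log2 fold change -0.29 and -0.37, adjusted p = 0.0609 and 0.0519). With the muscle marker level as a covariate, 6 were lower and the median log2 fold change was -0.85. Among the calls lost there, Adrb1 was at -0.78, Prkacb at -0.43 and Mapk14 at -0.42, against -1.17, -0.57 and -0.49 in the main test. Adrb3, the main beta-adrenergic receptor of rodent adipocytes, had 215, 245 and 344 CPM in the WT mice and 26.0, 123 and 20.9 CPM in the KO mice. Its fall (log2 fold change -2.27, adjusted p = 0.0114) was the most negative of the list. KO replicate 2, lowest of the KO mice for Ucp1, was highest for Adrb3. The muscle marker level as a covariate costs a degree of freedom and ran in part with genotype. With it, the log2 fold change of Adrb3 was -1.80 and the call was lost (adjusted p = 0.0800). Gnas, the stimulatory G protein subunit, fell from 7555 ± 527 to 1701 ± 82.6 CPM (log2 fold change -2.15, adjusted p = 1.09e-05). Prkaca, the catalytic subunit of protein kinase A, fell from 480 ± 9.97 to 189 ± 10.9 CPM (log2 fold change -1.34, adjusted p = 1.67e-05). Creb1, a factor that the kinase phosphorylates, was at 73.85 ± 1.26 and 74.4 ± 3.67 CPM and did not pass the test with TMM scaling (adjusted p = 0.93, 95% interval of the log2 fold change from -0.21 to 0.24).

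Of 20 genes listed as activators of Ucp1 transcription, 19 were tested, 8 were lower and 1 was higher, with a median log2 fold change of -0.50. Of all genes tested, 46.0% passed (22.3% lower and 23.7% higher), so the number of calls alone does not set this list apart. DESeq2 gave 11 lower and 1 higher, as did an unadjusted p under 0.05 with edgeR. Scaling by library size alone gave 7 lower and 3 higher. Dio2, the deiodinase that makes active thyroid hormone in brown fat, fell most, from 478 ± 341 to 86.4 ± 35.7 CPM (log2 fold change -2.46, adjusted p = 0.00462). Its WT mice had 840, 432 and 162 CPM, a wide range. Thrb, a thyroid hormone receptor, fell from 76.2 ± 10.7 to 26.0 ± 2.47 CPM (log2 fold change -1.56, adjusted p = 3.95e-05). Prdm16, a determinant of brown fat identity, fell from 93.3 ± 7.46 to 36.1 ± 10.7 CPM (log2 fold change -1.36, adjusted p = 0.000541). Ppargc1b, a coactivator of nuclear receptors, fell from 427 ± 4.28 to 201 ± 45.4 CPM (log2 fold change -1.08, adjusted p = 0.000601). Ppargc1a, the cold-induced coactivator of Ucp1, had 349, 227 and 207 CPM in the WT mice and 221, 132 and 191 CPM in the KO mice. Its groups overlapped and its adjusted p was 0.0906, although it passed with DESeq2, with the replicate number as a block and without WT replicate 3 (adjusted p = 0.0421, 0.0240 and 0.0467). Zfp516, a cold-induced zinc finger factor, was higher (17.6 ± 2.03 and 26.0 ± 4.50 CPM, adjusted p = 0.0223), a call lost without any 1 of WT replicates 1 and 2 or KO replicates 1 and 3 (adjusted p between 0.0556 and 0.0940).

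Of 12 genes listed as repressors of Ucp1 transcription, 11 were tested, 5 were lower and 0 were higher (edgeR), with a median log2 fold change of -0.02. Of all genes tested, 46.0% passed (22.3% lower and 23.7% higher), so the number of calls alone does not set this list apart either. DESeq2 gave the same counts for the list, and 2 were higher at an unadjusted p under 0.05 with edgeR. Scaling by library size alone gave 4 lower and 6 higher and a median of 0.40. Zfp423, a zinc finger factor that restrains the thermogenic program, passed as higher with a filter at a mean of 50 counts (adjusted p = 0.0345) and without WT replicate 2 (adjusted p = 0.0272). Rbl1, of the retinoblastoma family, did so without WT replicate 3 (adjusted p = 0.0257), and the corepressor Ctbp2 with quantile normalization (adjusted p = 0.0370). Foxo1, a factor under insulin control, fell most, from 402 ± 181 to 125 ± 10.6 CPM (log2 fold change -1.69, adjusted p = 0.00180). Tle3, which favours the white over the brown program, fell from 61.5 ± 18.2 to 26.9 ± 2.84 CPM (adjusted p = 0.00127), and Nr1h3, the liver X receptor alpha, fell from 98.7 ± 5.57 to 49.7 ± 4.42 CPM (adjusted p = 0.000127). Nrip1, a corepressor that holds down Ucp1 in white fat, was at 7.92 ± 1.23 and 11.1 ± 2.45 CPM and did not pass (adjusted p = 0.137).

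**Figure D3:**
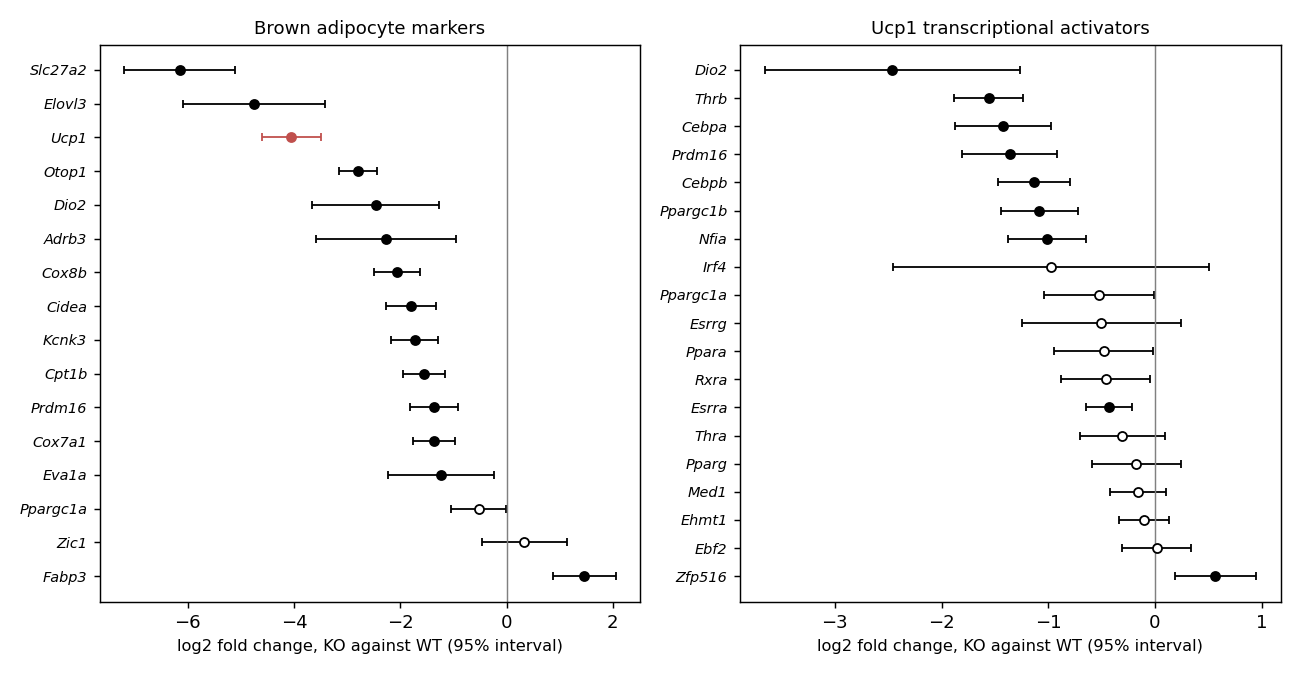
Log2 fold change of KO against WT with its 95% interval (edgeR) for each tested brown adipocyte marker (left, Ucp1 in red) and each tested gene listed as an activator of Ucp1 transcription (right). Filled points passed an adjusted p of 0.05; Slc27a2 (-6.15) and Elovl3 (-4.74) lie to the left of Ucp1 (-4.05).

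Macrophage markers rose together with Ucp2. All 16 were tested and all 16 were higher, with a median log2 fold change of 2.58, and none was at 0 in any mouse. Their summed level was 281, 215 and 296 CPM in the WT mice and 1857.5, 2991 and 1622.5 CPM in the KO mice. KO replicate 2 was highest both for these markers and for Ucp2. Lgals3, a lectin of activated macrophages, rose most, from 11.3, 7.95 and 5.87 CPM to 591, 786 and 309 CPM (67.1-fold, adjusted p = 8.45e-06). Adgre1, the gene of the macrophage antigen F4/80, rose 7.28-fold, from 6.15 ± 1.51 to 44.8 ± 15.1 CPM (SD, n = 3; adjusted p = 5.06e-05). Ucp2 rose by less than either, but by more than Cd14 (2.13-fold) and Cd163 (1.57-fold), the markers that rose least. Divided by the summed macrophage markers of the same mouse, Ucp2 was lower in KO BAT, with log2 ratios of -3.61, -3.22 and -3.63 in the WT mice and -5.14, -5.09 and -4.74 in the KO mice (difference -1.504, exact permutation p = 0.1). The part of these markers in the Ucp2 difference was not tested. Lymphocyte markers were near the floor: 3 of the 11 with a row were tested, and their sum was between 3.67 and 7.95 CPM in WT BAT and between 8.46 and 16.7 CPM in KO BAT. Of these 3, Cd4 and Nkg7 were higher, but both calls were lost without WT replicate 1, WT replicate 2 or KO replicate 2 (adjusted p between 0.0711 and 0.137).

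Skeletal muscle markers, of interest because muscle also expresses Ucp3, varied between mice of 1 genotype. Their summed level was 88.6, 530.4 and 100.3 CPM in the WT mice and 487.9, 377.6 and 1386 CPM in the KO mice, so WT replicate 2 lay among the KO mice (exact permutation p = 0.3). In WT replicates 1 and 3, Ckm, Myh2, Myh4, Tnnt3 and Pvalb were at 0 and Myl1 gave most of the sum (77.0 and 91.3 CPM). Of 15 markers, 3 were higher, with Myh1, a fast myosin, the most (1.14 ± 1.86 to 11.2 ± 11.99 CPM, adjusted p = 0.0323). DESeq2 called 0 of the 15, and leaving out WT replicate 1, WT replicate 3 or KO replicate 3 removed the call of Myh1. Without WT replicate 2, 13 of the 15 were higher. In Ucp3, WT replicate 2 had 93.8 CPM, beside 96.1 and 120.35 CPM in the WT mice with low muscle markers, and KO replicate 3, with the highest muscle markers, had the lowest Ucp3. With the muscle marker level as a covariate the log2 fold change of Ucp3 was -1.66 (adjusted p = 0.00206), and with WT replicate 2 and KO replicate 3 both left out it was -1.80 (adjusted p = 0.00068). The part of muscle RNA in the Ucp3 counts was not tested.

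**Figure D4:**
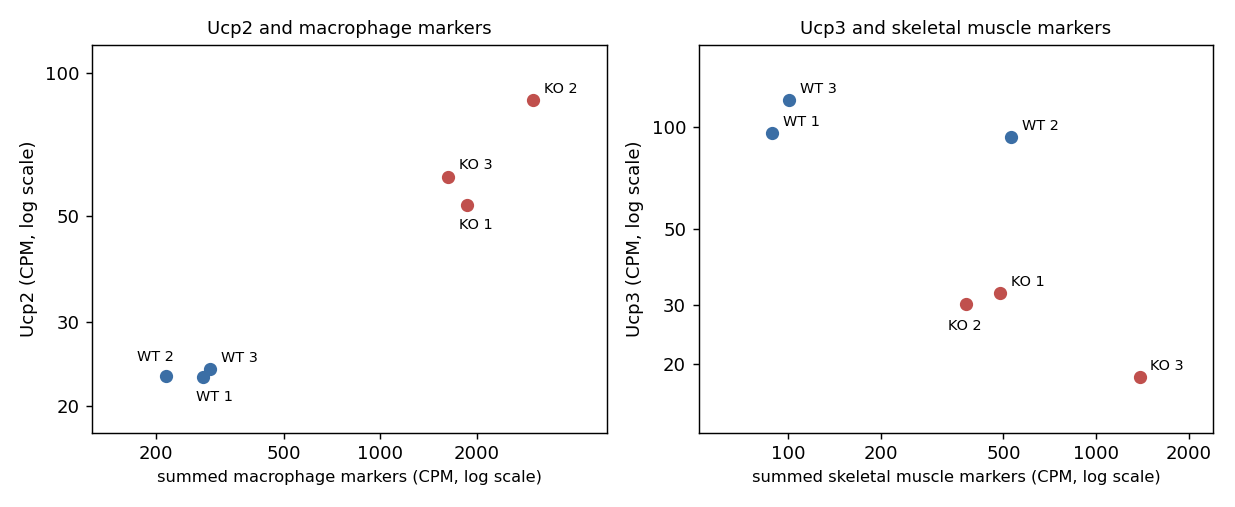
Left, Ucp2 against the summed macrophage markers; right, Ucp3 against the summed skeletal muscle markers, in CPM on log axes with 1 point per mouse. KO replicate 2 is highest on both left axes, and WT replicate 2 and KO replicate 3 have the highest muscle markers of their genotypes.

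Ucp3 is also a gene of the fatty acid program, which PPAR receptors control. Of 21 genes of that program, 20 were tested, 10 were lower and 6 were higher, with a median log2 fold change of -0.85. Enzymes and carriers of mitochondrial fatty acid oxidation were among the lower genes. Slc25a20, the acylcarnitine carrier, fell from 871 ± 8.06 to 243 ± 8.45 CPM (SD, n = 3; log2 fold change -1.84, adjusted p = 4.51e-06). Hadha, a subunit of the trifunctional protein, fell from 2380 ± 110 to 718.5 ± 16.8 CPM (log2 fold change -1.73, adjusted p = 1.14e-05). These are close in size to the change of Ucp3. Cpt1b, the muscle and brown fat form of carnitine palmitoyltransferase, fell 2.95-fold, whereas Cpt1a, the liver form, rose 4.93-fold from 7.72 ± 1.26 to 38.1 ± 6.80 CPM. Cyp4b1, a fatty acid hydroxylase, rose most, from 24.8 ± 1.25 to 172 ± 23.1 CPM (log2 fold change 2.79, adjusted p = 2.12e-06). Acot1 had the most negative change (-3.51) and Acot2 a positive one (2.37). Since these adjacent thioesterase genes are near-identical in sequence and multiple alignments were counted, the split between them is uncertain.

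Other mitochondrial carriers related to the UCPs showed no common direction. Of 8, 6 were tested, 2 were lower and 1 was higher, beside 46.0% of all genes tested that passed. The median log2 fold change was -0.14 and turned positive (0.28) with library size alone. It was also just above 0 with no filter on low counts (0.073), without WT replicate 1 (0.0055) and without KO replicate 2 (0.074). Slc25a11, the oxoglutarate carrier, fell from 226, 230 and 180 CPM to 99.7, 94.9 and 113 CPM (log2 fold change -1.04, adjusted p = 0.000207). Slc25a5, an adenine nucleotide translocase, was at 485 ± 18.9 and 357.5 ± 14.99 CPM (adjusted p = 0.00673), a call lost with library size alone and after quantile normalization (adjusted p = 0.893 and 0.528). Its heart and muscle form, Slc25a4, was at 628 ± 43.3 and 492 ± 105 CPM (adjusted p = 0.103), and its sign turned positive in both of those settings. Slc25a10, the dicarboxylate carrier, was higher, with 13.0, 10.2 and 10.95 CPM in the WT mice and 22.1, 62.2 and 14.5 CPM in the KO mice (adjusted p = 0.0260). That call was lost without any 1 of the WT mice (adjusted p between 0.0555 and 0.0767). Of the genes named as further uncoupling proteins, Slc25a14 was at 4.79 ± 0.32 and 6.52 ± 1.54 CPM, Slc25a27 was at 1.20 ± 0.70 and 1.27 ± 0.60 CPM, and Slc25a30 had no count in any mouse. None of these reached the level of Ucp2 in KO BAT.

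The genes around the members did not move with them as a group. Rnf150, which lies 199084 bases before Ucp1 and beyond Tbc1d9, fell from 45.8 ± 6.23 to 15.8 ± 1.40 CPM (SD, n = 3; log2 fold change -1.53, adjusted p = 5.56e-05, edgeR). The nearest genes, Tbc1d9, 17418 bases before Ucp1, and Elmod2, 14180 bases after it, did not pass (log2 fold changes 0.90 and -0.08, adjusted p = 0.0504 and 0.700). Tbc1d9 passed as higher in 5 other settings (adjusted p between 0.00771 and 0.0499). Zfp330, 516192 bases before Ucp1, was higher by 0.38 (adjusted p = 0.0446), a call lost without any 1 mouse except WT replicate 3. Around the pair of Ucp3 and Ucp2, C2cd3 did not pass (log2 fold change -0.15, adjusted p = 0.567). Mrpl48, a mitochondrial ribosomal protein, fell by 0.72 on the log2 scale (adjusted p = 0.00100), a call lost with library size alone. Coa4, an assembly factor of cytochrome oxidase, was lower by 0.97 (adjusted p = 0.0194). It stayed lower in the 5 settings in which that call was lost, among them without WT replicate 1 (log2 fold change -0.75, adjusted p = 0.0807) and without KO replicate 3 (-0.94, adjusted p = 0.0592). Ppme1 was lower by 0.37 (adjusted p = 0.0405), and its sign turned with library size alone (0.05). That call was also lost in 8 other settings, among them the replicate block and leaving out any 1 mouse except WT replicate 3 and KO replicate 3 (log2 fold change between -0.37 and -0.23, adjusted p between 0.0642 and 0.180). Mgat4d, Clgn, Dnajb13 and P4ha3 were too low to be tested.

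Likeness of pattern was measured as the root mean square difference of log2 CPM over the 6 mice, after subtracting the WT mean of each gene, among 10327 genes with at least 50 counts on average. It is a description and was not tested. The 5 genes nearest to Ucp1 were Mmd2 (0.287), Aspg (0.426), Ntrk3 (0.436), Hyal1 (0.5003) and Acsl5 (0.527). Mmd2 had 10, 2 and 19 counts in the KO mice and Hyal1 had 9, 9 and 19, so both reached that mean through their WT counts, and their distances depend on the prior count of 2 used for log2 CPM. Aspg, an asparaginase, had 183, 153 and 190 CPM in the WT mice and 9.78, 10.3 and 7.18 CPM in the KO mice. Those nearest to Ucp2 were Crlf2 (0.0659), H2-D1 (0.0759), Lgmn (0.0763), Ifi205 (0.0930) and Tor3a (0.10045). H2-D1, a class I histocompatibility antigen, had 411, 402 and 462 CPM in the WT mice and 1019, 1511 and 1031 CPM in the KO mice. Its counts, and those of Ifi205, may include reads of near-identical family members. Lgmn, a lysosomal protease, had 26.6, 24.8 and 25.2 CPM in the WT mice and 58.6, 105 and 62.8 CPM in the KO mice. For Ucp3 they were Pim1 (0.103), Kif21a (0.136), Fam132a (0.184), Slc25a32 (0.195) and 1700037H04Rik (0.208). Pim1, a serine and threonine kinase, had 391, 344 and 419 CPM in the WT mice and 126, 103 and 75.5 CPM in the KO mice, and like Ucp3 was lowest in KO replicate 3. The nearest gene was closer to Ucp2 and Ucp3 than to Ucp1, whose change few genes matched in size.

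The direction of each member held under other ways of scaling, with 1 exception. Under 15 other settings of the test, Ucp1 lay between -4.30 and -3.40 on the log2 scale, Ucp2 between 1.28 and 1.94 and Ucp3 between -2.11 and -1.53, and each passed every time. Relative to Rpl32, a ribosomal protein gene that was itself higher in KO BAT (423 ± 30.2 and 711 ± 114 CPM, adjusted p = 0.00198), the differences were -4.84, 0.75 and -2.71 for Ucp1, Ucp2 and Ucp3. The exception was Ucp2 relative to the macrophage markers.

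**Figure D5:**
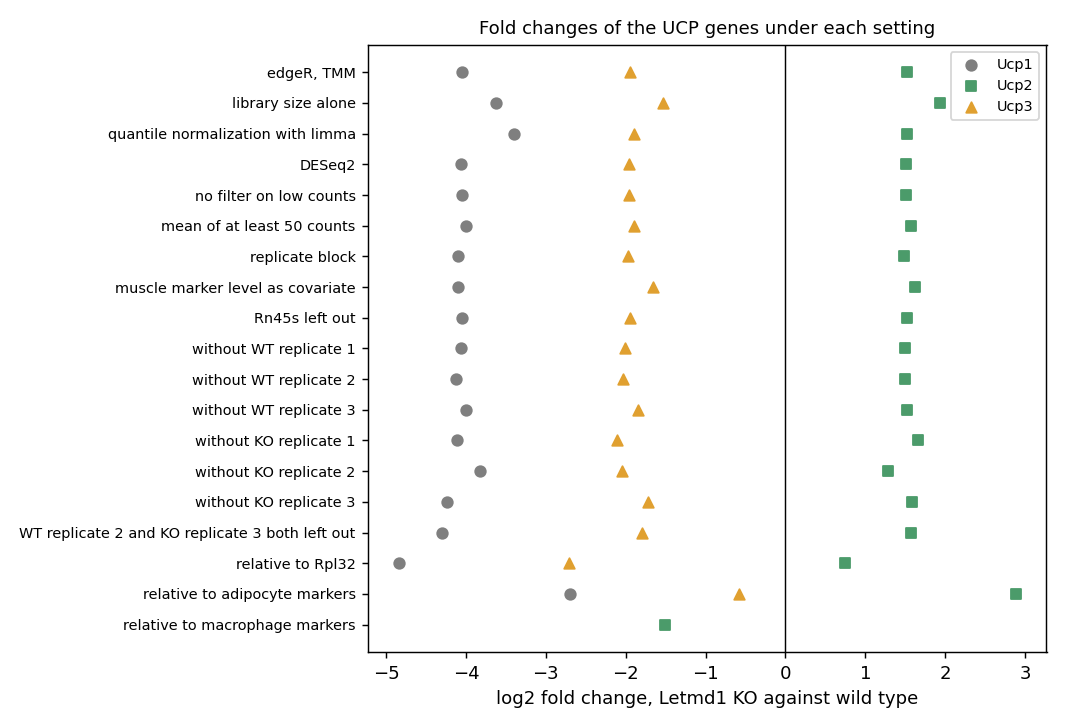
Log2 fold change of KO against WT for Ucp1, Ucp2 and Ucp3 under each setting, with 1 row per setting and a line at 0. Ucp1 and Ucp3 stay left of 0 in every row in which they are drawn, and Ucp2 stays right of it except relative to the macrophage markers (-1.504).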

How the data were processed

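RNA from BAT of 3 wild-type (WT) and 3 Letmd1 KO mice was sequenced with QuantSeq 3′ libraries as single-end reads of 75 bases. The authors aligned the reads with Bowtie2 (mm10, per the submitters' processing notes), used bedtools coverage to count reads with 1 or more alignments on each gene and deposited these counts as whole numbers, without normalization. The quantile normalization named in the study's methods is not in the deposited counts. The annotation and the use of strand are not given in the sources used here. Groups follow the genotype in the labels.

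Counts were tested in R 4.3.3 with edgeR 4.0.16 (TMM scaling, filterByExpr with min.count 10 and min.total.count 15, quasi-likelihood test, Benjamini-Hochberg adjustment, threshold 0.05). The tests across genes were tried on simulated counts in which 200 genes changed. Far more genes passed in the data, so the simulation does not check the scaling between the genotypes. Ratios, shares and sums of each mouse went into exact permutation tests, two-sided. The p-values measure the spread between these samples. Positions came from GENCODE vM21 and promoter sequences from RefSeq, both on GRCm38.

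The members and all gene lists were chosen with earlier results of these data known. Genes named are the members, the genes with the most negative and most positive change in a list, up to 6 carriers, activators and repressors each, the nearest 3 neighbours on each side, the 5 most alike in pattern, Letmd1 and Rpl32. The other genes named were chosen after their values were seen. Alternatives were library size alone, quantile normalization with limma 3.58.1, DESeq2 1.42.0, other filters, a replicate block, a muscle covariate, other references, the ribosomal RNA gene Rn45s left out, and leaving out mice.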

Additional observations from a re-analysis of the deposited data

How the results depend on the processing

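Ucp1, Ucp2 and Ucp3 kept their direction and passed the threshold in all 15 other settings of the test across genes. The highest adjusted p was 0.000198 for Ucp1 (WT replicate 2 and KO replicate 3 both left out), 0.00451 for Ucp2 and 0.00206 for Ucp3 (both with the muscle marker level as a covariate). The log2 fold changes were -3.62, 1.94 and -1.53 with library size alone, which moved the median of all genes from 0.03 to 0.45 and the calls to 1368 lower and 5899 higher (81.2% higher, against 51.6%). After quantile normalization they were -3.40, 1.52 and -1.90. Leaving out 1 mouse gave -4.24 to -3.83 for Ucp1, 1.28 to 1.66 for Ucp2, -2.11 to -1.72 for Ucp3 and 4842 to 5868 genes past the threshold, against 5978 with all mice. The muscle covariate left 3569 genes and leaving out both mice left 3889. Both settings cost degrees of freedom, as does the replicate block, and the reason for the fewer calls was not tested. The muscle covariate also ran in part with genotype. The mean log2 CPM of the muscle markers was -0.35, 4.30 and -0.43 in the WT mice and 4.31, 3.92 and 5.87 in the KO mice. Relative to Rpl32 the differences were -4.84, 0.75 and -2.71. Relative to the 6 reference adipocyte genes, all lower in KO BAT, they were -2.70, 2.88 and -0.58. Each was at the smallest exact p of 0.1. Ucp2 relative to macrophage markers reversed, at -1.50; the cause was not tested. Ratios, the summed level and the Ucp1 share kept their sign in all settings run, and without 1 mouse the Ucp1 share differed by -22.4 to -13.7 percentage points.

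Same-numbered WT and KO mice correlated at 0.13, -0.11 and -0.11 in their deviations from the group means. The highest value was 0.24, for WT replicate 2 and KO replicate 3. The labels name no pairs, and deviations from means of 3 mice cannot exclude them. With a replicate block the fold changes were -4.09, 1.49 and -1.97, with 5599 genes past the threshold. The paired exact p of the ratios was 0.25, the smallest that 3 pairs allow. The lowest depth, 1926 counts of Ucp1 or 183 of Ucp2 in a mouse, left every member far above 3 counts.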

Other observations

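Of 10 endothelial markers, 4 were lower and 0 higher with edgeR and with DESeq2 (6 lower and 0 higher at an unadjusted p under 0.05), with a median log2 fold change of -0.42. Of all genes tested, 46.0% passed with edgeR (22.3% lower and 23.7% higher), so the number of calls alone does not set these markers apart. Library size alone gave 1 lower and 1 higher (median 0.01), the muscle marker level as a covariate gave 1 lower and 0 higher (median -0.43), and 2 were lower without WT replicate 1 or KO replicate 2. Without WT replicate 3, 1 was higher (Cldn5, log2 fold change 1.57, adjusted p = 0.0127). Kdr, the main receptor of vascular endothelial growth factor, fell most among them, from 208 ± 52.6 to 104 ± 20.9 CPM (SD, n = 3; adjusted p = 0.00320, edgeR), and with the muscle marker level as a covariate the log2 fold change went from -0.99 to -0.85 and the call was lost (adjusted p = 0.0636). The summed endothelial markers were between 814 and 901 CPM in the WT mice and between 539 and 681 CPM in the KO mice. Retn, the adipokine resistin, was the adipocyte marker that passed as higher (adjusted p = 0.0249, edgeR). It had 56.1, 46.9 and 58.7 CPM in the WT mice and 90.9, 396 and 74.6 CPM in the KO mice. KO replicate 2 stood far above the others, and the call was lost without WT replicate 1 or WT replicate 2 (adjusted p = 0.0664 and 0.0749).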
